A study of Homo sapiens with 20 samples.

Results

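The genes of the Notch pathway described here were the 10 rows whose Ensembl identifiers map to *NOTCH1*, *NOTCH2*, *NOTCH3*, *DLL1*, *DLL4*, *JAG1*, *JAG2*, *HES1*, *HEY1* and *LFNG*. All 10 were found among the 60624 identifiers of the hILO tables and the 60623 of the PP tables. Their expression was compared between wild type (WT) cells and cells without *ALKBH5* (A5-KO) at 2 stages of pancreatic differentiation of MEL1, a human embryonic stem cell line that carries a GFP reporter in its insulin gene in both genotypes. ALKBH5 removes m6A, a methyl mark on adenosines of mRNA. The A5-KO cells were made from MEL1 with CRISPR-Cpf1 and expanded from picked colonies, and as the labels name no separate clones, genotype and clone cannot be told apart.

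The hILOs are islet-like organoids, represented by 2 WT and 2 A5-KO libraries. Both genotypes were cultured on days 15 to 22 with 0.1 µM compound E, a gamma-secretase inhibitor that blocks the cleavage of Notch receptors, so no hILO library was a control for this inhibitor. The labels give the media to day 22 and no day of collection. The protocol in the paper lists a later hILO medium, used after day 22, without compound E. Whether these libraries were collected with the inhibitor present or after its removal is therefore unknown. The PPs are pancreatic progenitors, cultured on days 9 to 14 with 50 ng/ml EGF and without compound E. They were treated with 1 µg/ml actinomycin D (Act D), which stops transcription, and collected after 0, 1, 2 or 3 h, with 2 libraries for each genotype and time. According to the paper, the wells of a biological replicate shared one batch of cells and were divided among the treatments. The times of one replicate may therefore be paired, but the main fits treated all libraries as independent. Whether the 2 replicates came from separate batches is not stated. The *p*-values thus measure the spread between these libraries, which may be partly technical. For 2 libraries against 2, the smallest two-sided *p* of an exact permutation test is 0.33, so the *p*-values below come from models fitted across all genes.

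Notch receptors are bound by Delta-like (DLL) and Jagged (JAG) ligands on a neighbouring cell. Gamma-secretase then releases the intracellular part of the receptor, which joins the DNA-binding protein RBPJ in the nucleus and activates targets such as *HES1* and *HEY1*, both transcriptional repressors. In the developing pancreas this signal keeps progenitors undifferentiated, because HES1 represses *NEUROG3*, the gene that starts the endocrine programme.

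*HES1* is shown by sequence first because it changed in more comparisons than any other member here. The gene lies on chromosome 3 (194136148 to 194138732, plus strand, GRCh38). The 250 bases before its start (chr3:194135898-194136147, plus strand, RefSeq, GRCh38.p14) are printed 5′ to 3′ with each TGGGAA, the core of the sequence that RBPJ binds, in capitals.
HES1 promoter: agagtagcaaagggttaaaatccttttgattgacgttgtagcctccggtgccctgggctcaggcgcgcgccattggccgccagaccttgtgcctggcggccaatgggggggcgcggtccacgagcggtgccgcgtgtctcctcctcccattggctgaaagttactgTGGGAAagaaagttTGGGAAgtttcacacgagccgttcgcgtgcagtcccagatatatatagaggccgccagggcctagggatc

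The sites began 84 and 70 bases before the start, on the same strand. TGGGAA or its complement TTCCCA occurred in the 250 bases before 20.8% of 35116 RefSeq starts, at 2 or more places in 2.90%, and as a pair on one strand within 30 bases in 0.382%. RefSeq promoters were matched for 8 of the 10 members. Beside *HES1*, one of the starts listed for *LFNG* had the motif, 248 bases upstream, and the windows of *NOTCH1*, *NOTCH2*, *NOTCH3*, *DLL4*, *JAG1* and *JAG2* did not hold these letters.

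The transcripts of the members also differed in the elements of their 3′ UTRs, read from one GENCODE transcript per gene. The 3′ UTR of *HES1* had 499 bases, no ATTTA (the core of AU-rich elements) and a single TGTANATA, the kind of site that Pumilio proteins bind. That site is printed with its flanks (chr3:194138415-194138442, plus strand, GRCh38), the 8 bases in capitals.
HES1 3′ UTR site: gcactatattTGTATATAttttatatgt

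Among 1848 3′ UTRs within 20% of this length, 10.3% had a TGTANATA and 52.4% an ATTTA. *HEY1* had 7 ATTTA in 1178 bases, a number reached by 7.04% of 2272 3′ UTRs of like length, and no TGTANATA. *JAG1* had 9 ATTTA in 1814 bases, reached by 9.19% of 2545, and *DLL4* had 2 in 1039 bases, reached by 52.7% of 2176. These matches describe the letters only.

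The mRNA of *ALKBH5* was checked first. Its level was 78.8 and 81.9 TPM in WT against 4.16 and 3.42 TPM in A5-KO hILOs, and 149 and 172 CPM in WT against 19.1 and 18.8 CPM in A5-KO PPs at 0 h. In PPs, between 30516384 and 35206514 reads were counted per library, whereas TPM keeps no depth and the reads behind the hILO values are unknown. The WT libraries at 2 h stood furthest apart as replicates, with a chi-square of 34.1 per degree of freedom. WT at 3 h (23.1) and A5-KO at 1 h (21.9) followed, against 4.15 to 13.6 in the remaining PP groups. The WT libraries at 2 h enter no comparison of 0, 1 and 3 h except through the shared estimate of the spread. Those of WT at 3 h and A5-KO at 1 h enter the change from 1 h to 3 h directly.

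In PPs before Act D, the members differed widely in level. Per kb of exon, *JAG1*, which encodes the ligand Jagged1, was the highest in WT at 30.2 ± 2.32 CPM per kb (SD, n = 2), followed by *HES1* at 24.8 ± 3.29 and the receptor *NOTCH2* at 24.0 ± 0.200. The libraries of *HES1* and *NOTCH2* overlapped, so their order is not resolved. *LFNG*, a glycosyltransferase that modifies Notch receptors, was at 16.02 ± 0.197, *NOTCH3* at 7.21 ± 0.283, *HEY1* at 6.46 ± 0.131 and *NOTCH1* at 5.04 ± 0.0809 CPM per kb. The ligands *JAG2* (1.54 ± 0.103) and *DLL4* (0.908 ± 0.142) were the lowest of the 9 members with reads in every library.

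In A5-KO PPs at 0 h, *HES1* was at 30.8 ± 2.27 and *JAG1* at 29.0 ± 1.91 CPM per kb, and their libraries overlapped. *DLL4* (1.37 ± 0.218) and *JAG2* (1.23 ± 0.186) overlapped as well. When the longest transcript was used as the length, *NOTCH2* preceded *HES1* and *HEY1* preceded *NOTCH3* in WT. Reads of *NOTCH2* may be split with its near-identical *NOTCH2NL* copies, which makes its level uncertain.

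*DLL1*, the gene of another ligand, is listed at 0 in 15 of 16 PP libraries, with 1 read in all. Genes that every cell uses are listed at 0 as well: *EEF1G*, *MIF*, *PSMB3* and *TOMM6* had no read in the 16 PP libraries, but at least 190.6 TPM in every hILO library. The value of *DLL1* in PPs is therefore not read as its absence. *FAM120B*, which shares 370 of the 3819 exon bases of *DLL1* on the other strand, had 127 reads in the PP libraries.

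**Figure D1:**
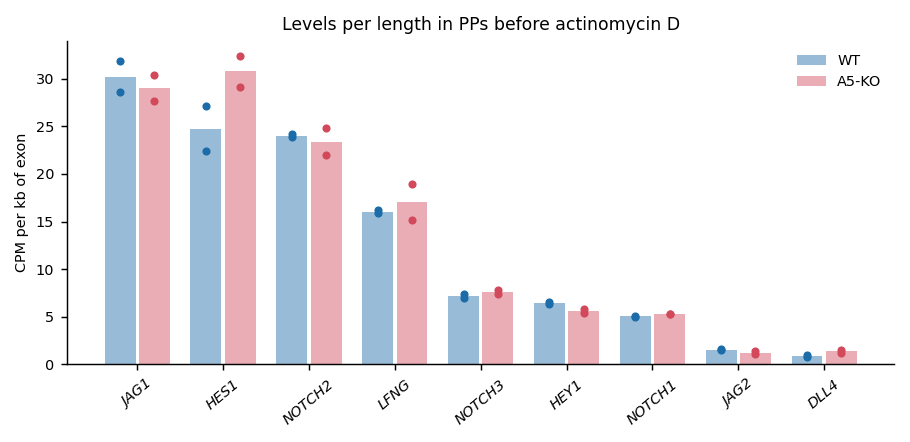
Level per length (CPM per kb of exon, linear axis) of 9 members in PPs before Act D, with bars for means of 2 libraries and points for the libraries, WT in blue and A5-KO in red. *JAG1*, *HES1* and *NOTCH2* stood highest in both genotypes, and *JAG2* and *DLL4* were under 2 CPM per kb.

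In hILOs the order was another. *HES1* led in WT at 44.4 ± 0.355 TPM (SD, n = 2), above *JAG1* (34.1 ± 0.281) and *DLL4* (34.0 ± 0.593), which overlapped. *LFNG* followed at 6.44 ± 1.39 TPM, then *JAG2* at 3.80 ± 0.364 and *DLL1* at 2.83 ± 0.0299. The receptors *NOTCH1*, *NOTCH2* and *NOTCH3* and the target *HEY1* had means between 1.15 and 1.62 TPM, and all 4 overlapped. In A5-KO hILOs *DLL4* led at 49.0 ± 1.40 TPM, and *JAG1* (26.9 ± 0.354) and *HES1* (25.7 ± 1.88) overlapped. The stages were normalised separately, in different units, so no level was compared between them.

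The hILO comparison asks which members differed between the genotypes in organoids. *HES1* was lower in A5-KO hILOs. The WT libraries held 44.6 and 44.1 TPM and the A5-KO libraries 27.1 and 24.4 TPM, and the genotypes did not overlap. In log2(TPM + 1), a scale on which low genes change less, the difference was -0.77 (standard error 0.08, limma adjusted *p* = 0.0127), a 1.70-fold decrease. Calls required an adjusted *p* (Benjamini-Hochberg) under 0.05 together with a change of over 1.5-fold. *HES1* was the only called member of 9 tested, whereas 6.79% of the 17300 genes tested were called and 4.09% were called lower and 2.70% higher. Of the members, 5 had an unadjusted *p* below 0.05. The call rests on all 4 libraries. Without any one of them the difference was between -0.84 and -0.69 and the limma adjusted *p* between 0.0513 and 0.0827.

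Among the ligands, *DLL4* was at 34.5 and 33.6 TPM in WT against 50.0 and 48.0 TPM in A5-KO, a log2 difference of 0.51 (SE 0.06, limma adjusted *p* = 0.0172) that stayed under 1.5-fold. *JAG1* was at 33.9 and 34.3 TPM in WT against 26.7 and 27.2 TPM in A5-KO, with a log2 difference of -0.33 (SE 0.06, limma adjusted *p* = 0.0434). *JAG2* was at 4.05 and 3.54 TPM against 1.95 and 1.99 TPM, with a log2 difference of -0.69 (limma adjusted *p* = 0.0721). So the libraries of *DLL4* were higher in A5-KO and those of *JAG1* and *JAG2* lower, with no overlap, but none of them was called. *DLL1* was at 2.81 and 2.85 TPM in WT against 2.56 and 2.67 TPM in A5-KO (log2 difference -0.08, limma adjusted *p* = 0.768).

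*LFNG* was at 5.46 and 7.43 TPM in WT against 10.8 and 9.83 TPM in A5-KO, with no overlap and a log2 difference of 0.61 (95% interval 0.14 to 1.09, limma adjusted *p* = 0.0990). *NOTCH3* was at 1.02 and 1.35 TPM against 0.454 and 0.359 TPM and was not tested, as its mean was under 1 TPM. *NOTCH1* (1.11 and 1.45 against 2.42 and 0.641 TPM), *NOTCH2* (1.19 and 1.11 against 0.970 and 1.42 TPM) and *HEY1* (0.712 and 2.52 against 0.582 and 1.25 TPM) overlapped between the genotypes. In all, 7 of 10 members did not overlap, as did 61.4% of all genes tested.

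**Figure D2:**
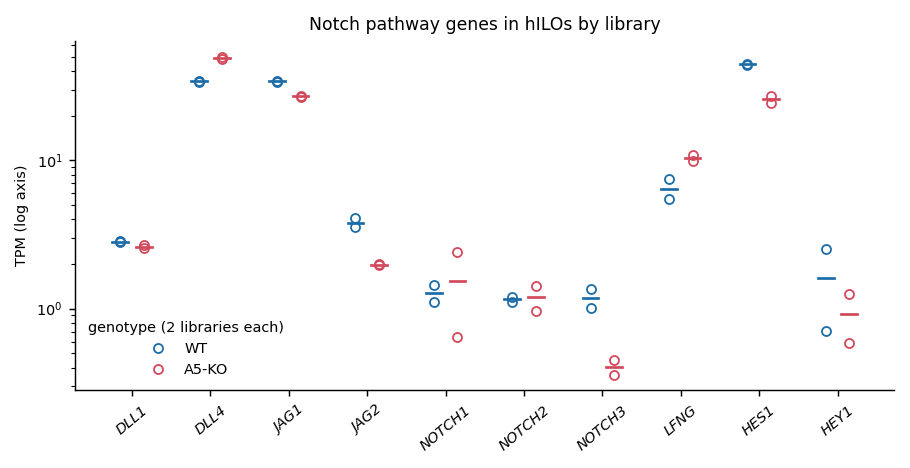
TPM (log axis) of the 10 members in hILOs, with circles for libraries and lines for the means of 2, WT in blue and A5-KO in red. *HES1*, *JAG1* and *JAG2* sat lower in A5-KO and *DLL4* and *LFNG* higher, while *NOTCH1*, *NOTCH2* and *HEY1* overlapped near 1 TPM.

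Among 86 other genes of the pathway in 7 lists, 78 were tested in hILOs, with 5 called lower and 4 higher. Of all genes tested, 4.09% were called lower and 2.70% higher. The median log2 difference of these 78 genes was -0.11 and that of all genes tested -0.06. Of 7 other receptors and ligands tested, 3 were lower: *MFAP2* by -1.23 (limma adjusted *p* = 0.0386), the atypical ligand *DLK1* by -1.19 (adjusted *p* = 0.00248) and the ligand *DLL3* by -0.95 (adjusted *p* = 0.0167). Another list mixes other HES and HEY family genes with genes listed as direct targets, and 12 of it were tested. Of these, *MYC* was lower by -0.73 (limma adjusted *p* = 0.0242). *ID1* (0.85, adjusted *p* = 0.00352) and *ID3* (0.69, adjusted *p* = 0.0112), inhibitors of bHLH factors, were higher. No gene of the lists of receptor glycosylation (7 tested), endocytosis (13), receptor cleavage (9) or the RBPJ complex (20) was called.

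Of 10 tested endocrine genes under the repression of HES1, *NEUROG3* was lower. Its WT libraries held 2.38 and 2.44 TPM against 0.586 and 0.747 TPM in A5-KO, a log2 difference of -1.04 (limma adjusted *p* = 0.0447) that was not called with a pseudocount of 0.1 (adjusted *p* = 0.0516), without the filter on low values (0.107) or without any one of the 4 libraries. *NEUROD1* was higher by 0.75 (limma adjusted *p* = 0.00285) and *PAX4* by 0.59 (adjusted *p* = 0.00914). Both are transcription factors of the endocrine lineage.

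Summed markers of other cell types also differed between the genotypes in hILOs. The summed level of 9 endocrine markers was 34753 to 37117 TPM in WT against 26851 to 28073 TPM in A5-KO. That of 10 mesenchyme markers, 6 of them at 1 TPM or more in some library of each genotype, was 16.7 to 23.1 against 54.8 to 67.1 TPM, and that of 8 hepatic markers 12293 to 12623 against 13441 to 13803 TPM. Single markers did not all follow these sums. Of 9 endocrine markers tested, 3 were called lower and 1 higher, and of 8 hepatic markers 2 were called lower and 2 higher. Of 6 mesenchyme markers tested, 3 were called higher and 0 lower. No marker of these 3 lists was at 0 in every library. Their part in the differences of the members was not tested, and in these bulk samples fewer cells of a type and less RNA per cell cannot be told apart. Of 10 endothelial markers, only *EGFL7* and *ESAM* reached 1 TPM in some library of each genotype, *ERG* was at 0 in every library, and *CDH5* and *TEK* were at 0 in both WT libraries. Their sum was 174 to 182 TPM in WT against 146 to 147 TPM in A5-KO, most of it from *EGFL7*. By contrast, *ESAM* had higher values in A5-KO (3.28 and 3.52 TPM) than in WT (0.434 and 1.18 TPM). Neither gene was called. Both A5-KO libraries of *DLL4*, which endothelial cells also express, lay above WT. A part of endothelial cells in this difference of *DLL4* was not tested.

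In PPs at 0 h, no member was called between the genotypes with limma, edgeR or DESeq2, whereas 2.70% of 13911 genes tested were called with limma (1.13% lower and 1.57% higher). Of the 9 members tested, 2 had an unadjusted *p* below 0.05. *HES1* was at 55.8 and 46.2 CPM in WT against 66.6 and 60.0 CPM in A5-KO, with a log2 difference of 0.31 (SE 0.11, limma adjusted *p* = 0.170). *DLL4* was at 4.79 and 3.84 CPM in WT against 7.23 and 5.77 CPM in A5-KO, with a log2 difference of 0.50 (SE 0.18, limma adjusted *p* = 0.179). The A5-KO libraries of both genes lay above those of WT. Such separation was seen for 6 of the 10 members and for 49.8% of all genes tested.

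The other members had log2 differences between -0.30 (*JAG2*) and 0.08 (*NOTCH3*) at 0 h. The 95% interval was -0.44 to 0.04 for *HEY1*, at 35.97 and 34.95 CPM in WT against 32.1 and 29.5 CPM in A5-KO. It was -0.24 to 0.13 for *JAG1*, -0.12 to 0.26 for *NOTCH1* and -0.21 to 0.13 for *NOTCH2*. Differences within these intervals were not excluded with 2 libraries against 2.

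Of 75 other pathway genes tested at 0 h, 4 were higher in A5-KO and 0 lower, against 1.57% higher and 1.13% lower of all genes tested. The 4 were *RFX6* (1.38, limma adjusted *p* = 0.00919), a factor of endocrine development, *ID2* (0.67, adjusted *p* = 0.0178), *ID3* (0.60, adjusted *p* = 0.00428) and *DTX4* (0.62, adjusted *p* = 0.0447), a Deltex-type ubiquitin ligase. *NEUROG3* was at 2.61 and 1.89 CPM in WT against 2.50 and 2.05 CPM in A5-KO, and the genotypes overlapped. Summed hepatic markers were at 1089 to 1137 CPM in WT against 1875 to 1896 CPM in A5-KO, and mesenchyme markers at 139 to 145 against 230 to 232 CPM. Their part in the levels of the members was not tested.

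Act D was used to follow how fast existing transcripts are lost. CPM is a share of each library and the spike-ins had been removed from the tables, so a transcript that is lost more slowly than the rest can rise in CPM. All 16 PP libraries were fitted together, with a mean for each genotype and time.

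During the first hour, *HES1* fell more steeply than any other member. In WT it went from 55.8 and 46.2 CPM at 0 h to 5.69 and 9.21 CPM at 1 h, a log2 change of -2.65 (SE 0.32, limma adjusted *p* = 3.69e-05). In A5-KO it went from 66.6 and 60.0 to 8.57 and 9.47 CPM, a log2 change of -2.68 (SE 0.32, limma adjusted *p* = 3.75e-05). The 1 h libraries of both genotypes overlapped.

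*HEY1* fell from 35.97 and 34.95 to 19.8 and 17.4 CPM in WT (log2 change -0.90, limma adjusted *p* = 0.00249) and from 32.1 and 29.5 to 17.4 and 19.5 CPM in A5-KO (-0.71, adjusted *p* = 0.00890). *JAG1* fell from 296 and 266 to 187 and 185 CPM in WT (log2 change -0.59, limma adjusted *p* = 0.000652). In A5-KO it went from 282 and 257 to 200.03 and 168 CPM, a log2 change of -0.56 just under 1.5-fold (adjusted *p* = 0.000855). *DLL4* went from 4.79 and 3.84 to 1.92 and 2.37 CPM in WT (-0.76, limma adjusted *p* = 0.0541) and fell from 7.23 and 5.77 to 3.57 and 2.07 CPM in A5-KO (-0.99, adjusted *p* = 0.00986). Both targets and these ligands thus had lower means after 1 h in both genotypes.

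In each genotype 3 of 9 members were called, all lower: *HES1*, *HEY1* and *JAG1* in WT, and *HES1*, *HEY1* and *DLL4* in A5-KO. Among all 13620 genes tested, 15.5% were called in WT (15.3% lower and 0.206% higher) and 17.8% in A5-KO (16.7% lower and 1.06% higher). With median-of-ratios scaling, which moves the median of all genes by 0.13 in WT and 0.15 in A5-KO on the log2 scale, *JAG1* (-0.44) in WT and *HEY1* (-0.55) in A5-KO were under 1.5-fold. *JAG1* in WT was also not called without replicate 1 at 0 h (-0.51) or replicate 2 at 1 h (-0.58). In A5-KO, *DLL4* was not called without replicate 1 at 0 h (-0.85, limma adjusted *p* = 0.111) or replicate 2 at 1 h (-0.71, adjusted *p* = 0.134), nor *HEY1* without replicate 1 at 0 h (-0.65, adjusted *p* = 0.0858) or replicate 1 at 1 h (-0.63, adjusted *p* = 0.0556), whereas *JAG1* was called without replicate 2 at 0 h (-0.62) or replicate 1 at 1 h (-0.68). In WT, *DLL4* was called without either library of 2 h or either A5-KO library of 1 h (adjusted *p* at most 0.0488). Relative to the median of all genes, the log2 change of *HES1* was -2.53 in WT and -2.54 in A5-KO.

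The receptors, *LFNG* and *JAG2* had no called change in that hour. In WT, *NOTCH1* went from 63.9 and 62.5 to 60.3 and 69.4 CPM, *NOTCH2* from 405 and 399.98 to 428 and 440.49 CPM, *NOTCH3* from 69.7 and 65.9 to 77.5 and 85.6 CPM and *LFNG* from 54.6 and 55.6 to 55.8 and 55.1 CPM. In A5-KO, *NOTCH2* went from 415 and 368 to 380.1 and 251 CPM, and *NOTCH3* from 70.0 and 73.7 to 109 and 69.2 CPM. At 1 h, 2 of 10 members did not overlap between the genotypes, *NOTCH2* (lower in A5-KO) and *LFNG* (higher, at 80.2 and 71.9 CPM), against 56.0% of all genes tested. The A5-KO replicates at 1 h differed more from each other for these receptors than the WT replicates did. Without replicate 2 of A5-KO at 1 h, *NOTCH3* was called higher in A5-KO (0.59, limma adjusted *p* = 0.0269), and without replicate 1, *NOTCH2* was called lower (-0.64, adjusted *p* = 0.000475).

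The change of the first hour was not shown to differ between the genotypes for any member: 0 of 9 were called, against 0.220% of all genes tested, and edgeR and DESeq2 also called none. The difference for *HES1* was -0.03 on the log2 scale (95% interval -1.001 to 0.93), and that for *HEY1* 0.19 (-0.38 to 0.76). *NOTCH2* alone had an unadjusted *p* below 0.05, with a difference of -0.45 (limma adjusted *p* = 0.499). Without replicate 1 of A5-KO at 1 h that difference was -0.75 (adjusted *p* = 0.0158).

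Between 1 h and 3 h the genotypes parted. In A5-KO, *HES1* fell further, from 8.57 and 9.47 to 2.58 and 2.18 CPM (log2 change -1.57, SE 0.32, limma adjusted *p* = 0.00208). In WT the libraries held 5.69 and 9.21 CPM after 1 h but 10.8 and 14.4 CPM after 3 h, a log2 change of 0.70 (limma adjusted *p* = 0.650). At 2 h the A5-KO libraries held 2.51 and 2.65 CPM and those of WT, which were far apart, 2.99 and 9.92 CPM. At that time 6 of 10 members did not overlap between the genotypes, all lower in A5-KO, against 57.4% of all genes tested. The difference between these changes was -2.27 on the log2 scale (SE 0.46, limma adjusted *p* = 0.00352).

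*HEY1* fell in A5-KO from 17.4 and 19.5 CPM at 1 h to 6.33 and 6.96 CPM at 3 h (log2 change -1.35, limma adjusted *p* = 0.000153). In WT it was at 19.8 and 17.4 CPM and then at 17.5 and 20.2 CPM. The difference was -1.37 (SE 0.27, limma adjusted *p* = 0.00311). *DLL4* fell in A5-KO from 3.57 and 2.07 to 0.767 and 0.632 CPM (log2 change -1.14, limma adjusted *p* = 0.00539) and was at 1.92 and 2.37 CPM, then 2.15 and 2.37 CPM, in WT, with a difference of -1.20 (SE 0.38, adjusted *p* = 0.0379). In WT, then, the libraries of *HEY1* and *DLL4* at 1 h and at 3 h overlapped.

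The difference for *DLL4* had a limma adjusted *p* between 0.00652 and 0.140 with one library left out, and it was lost without any one library of WT at 1 h or 3 h, of A5-KO at 2 h or 3 h, or without replicate 1 of A5-KO at 1 h. The A5-KO change of *DLL4* from 1 h to 3 h was also lost without that last library (-0.86, adjusted *p* = 0.0691). *HES1* and *HEY1* kept their calls for this difference in each such fit.

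**Figure D3:**
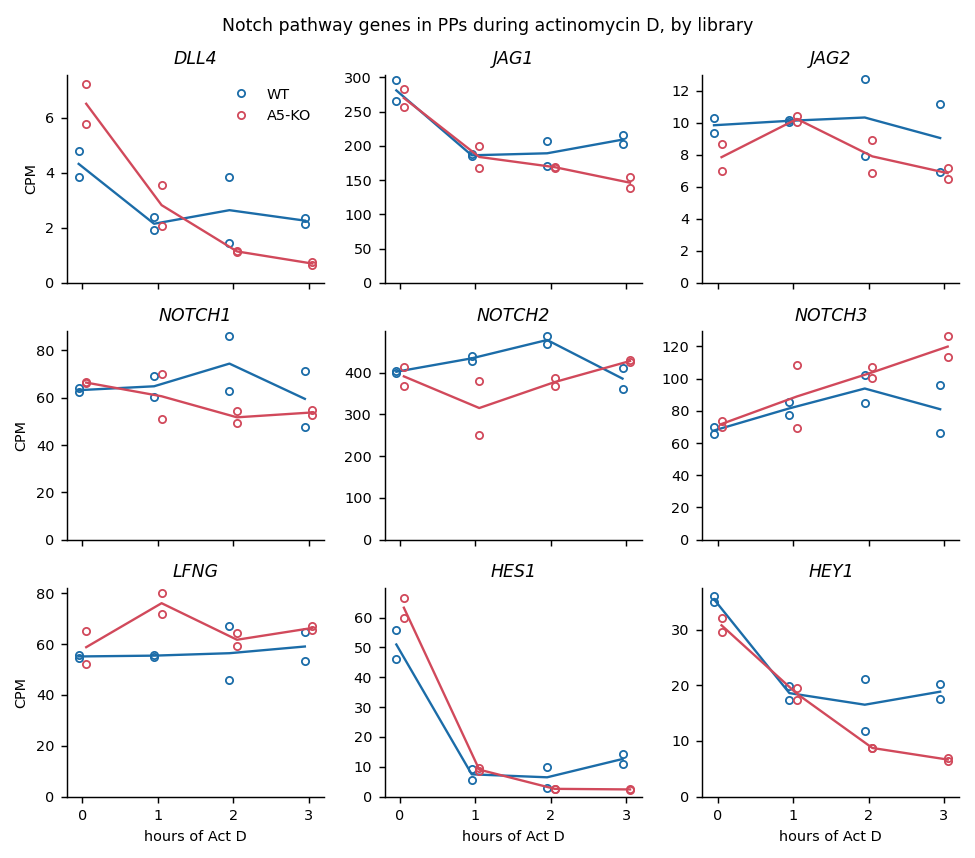
CPM (linear axes from 0) of 9 members in PPs against hours of Act D, with circles for libraries and lines through the means of 2, WT in blue and A5-KO in red. *HES1*, *HEY1* and *DLL4* fell together in the first hour, after which the A5-KO lines continued down and the WT lines did not, while the receptor *NOTCH3* ended higher in A5-KO.

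*JAG1* was at 187 and 185 CPM after 1 h and 216 and 202 CPM after 3 h in WT, and at 200.03 and 168 and then 155 and 138 CPM in A5-KO. The log2 difference between these changes was -0.49 (SE 0.15, limma adjusted *p* = 0.0281), under 1.5-fold, and -0.62 without replicate 2 of A5-KO at 1 h, when it was called. *NOTCH2* went the other way. It was at 428 and 440.49 and then 410.4 and 361 CPM in WT, and at 380.1 and 251 and then 430.15 and 426 CPM in A5-KO, with a difference of 0.64 (SE 0.18, limma adjusted *p* = 0.0233). This call rests on one A5-KO library at 1 h, replicate 2, the one at 251 CPM: without it the difference was 0.34 (adjusted *p* = 0.0632). The call was also lost without either WT library at 1 h, replicate 2 of WT at 3 h or either A5-KO library at 3 h.

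For *NOTCH3* the difference was 0.49 (95% interval -0.04 to 1.02, limma adjusted *p* = 0.181), which was called without replicate 1 of WT at 3 h (0.76) or replicate 1 of A5-KO at 1 h (0.81), and for *NOTCH1* -0.01 (-0.53 to 0.52). *LFNG* (-0.28) and *JAG2* (-0.34) were not called either.

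Counts of members are given here beside those of all genes. In WT 0 of 9 members were called between 1 and 3 h with limma, edgeR or DESeq2, with 1 at an unadjusted *p* below 0.05, against 0.595% of all genes tested (0.110% lower and 0.485% higher). In A5-KO 3 of 9 were called, all lower, against 16.4% of all genes (15.5% lower and 0.837% higher). For the difference 4 of 9 were called, 3 lower and 1 higher, against 16.6% of all genes (15.4% lower and 1.22% higher). The median difference of all genes was -0.17 on the log2 scale, and relative to it the difference was -2.10 for *HES1*, -1.19 for *HEY1*, -1.02 for *DLL4* and 0.82 for *NOTCH2*.

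**Figure D4:**
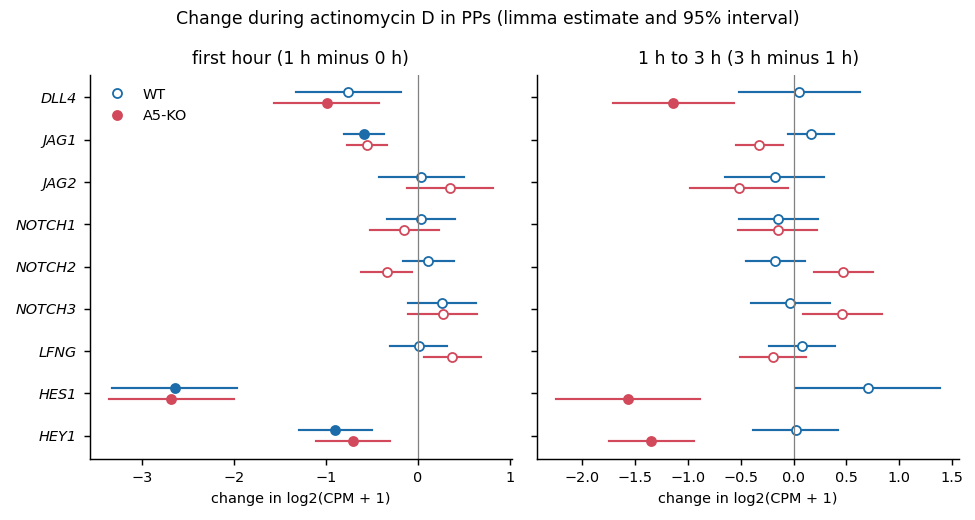
Change in log2(CPM + 1) of 9 members in PPs in the first hour of Act D (left) and from 1 h to 3 h (right), with limma estimates and 95% intervals for WT (blue) and A5-KO (red) and filled points for called changes. The intervals of *HES1* overlapped in the first hour (-2.65 and -2.68) and were apart from 1 h to 3 h (0.70 and -1.57).

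After 3 h of Act D, *HES1* was 3.99-fold lower in A5-KO than in WT PPs (log2 difference -1.996, SE 0.32, limma adjusted *p* = 0.000261). *HEY1* was 2.59-fold lower (-1.37, SE 0.19, adjusted *p* = 8.19e-05) and *DLL4* 1.92-fold lower (-0.94, SE 0.27, adjusted *p* = 0.0147). These 3 of 9 members were called, against 18.9% of all genes tested (17.7% lower and 1.15% higher). *JAG1* had a log2 difference of -0.51 (SE 0.10, limma adjusted *p* = 0.00143), which is 1.43-fold, and was called without replicate 1 of A5-KO (-0.60). *NOTCH3*, at 95.9 and 66.1 CPM in WT against 126 and 113 CPM in A5-KO, differed by 0.58 (SE 0.18, limma adjusted *p* = 0.0196), just under 1.5-fold, and was called with median-of-ratios scaling (0.72), edgeR (0.70) and DESeq2 (0.71), and without replicate 1 of WT (0.85). *DLL4* was not called without replicate 2 of WT (adjusted *p* = 0.0757) or of A5-KO (0.0923) at 3 h.

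At 3 h, 7 of 10 members did not overlap between the genotypes, against 66.0% of all genes. *NOTCH2* (410.4 and 361 against 430.15 and 426 CPM) and *LFNG* (64.7 and 53.3 against 65.7 and 67.0 CPM) were among these but not called. *NOTCH1* (71.4 and 47.6 against 54.8 and 52.7 CPM) and *JAG2* (11.2 and 6.92 against 6.50 and 7.21 CPM) overlapped.

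Half-lives were computed in each replicate from a line through the ratios to 0 h. That of *HES1* was 0.749 and 1.19 h in WT against 0.534 and 0.545 h in A5-KO, and between 0.110% and 0.345% of all genes had a steeper line. That of *HEY1* was 1.95 and 2.92 h in WT against 1.21 and 1.36 h in A5-KO, that of *DLL4* 1.76 and 5.18 h in WT against 0.915 and 0.934 h in A5-KO, and that of *JAG1* 3.87 and 5.80 h in WT against 3.06 and 3.08 h in A5-KO. The half-lives of these 4 members were thus shorter in both A5-KO replicates than in both WT replicates. The share of all genes that separated in this way was not counted, so this is not read as particular to the members. Each ratio used the 0 h library of the same replicate number, although libraries with the same number showed little shared deviation. The median slope of all genes corresponded to a half-life of 14.6 and 31.8 h in WT against 9.82 and 9.74 h in A5-KO. A single line described *HES1* poorly in WT, which held 10.4% and 20.1% of its 0 h CPM at 1 h but 19.5% and 31.3% at 3 h. In WT, most of the loss of *HEY1*, *DLL4* and *JAG1* also came in the first hour. *HEY1* held 55.2% and 49.8% at 1 h and 48.7% and 58.0% at 3 h. *DLL4* held 41.2% and 62.8%, then 45.9% and 62.6%. *JAG1* held 63.3% and 69.6%, then 72.9% and 76.1%. The WT half-lives of all 4 members include this later course. The change of the first hour was not shown to differ between the genotypes for any of them (log2 difference -0.03 for *HES1*).

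The lines of *NOTCH3* rose in all 4 replicates, and its CPM at 3 h was 138% and 100.3% of that at 0 h in WT and 180.3% and 154% in A5-KO. *NOTCH1* had half-lives of 8.88 and 7.03 h in A5-KO, 140 h in one WT replicate and a rising line in the other. The lines of *NOTCH2*, *LFNG* and *JAG2* rose in at least 1 replicate of each genotype. The transcripts of the receptors and *LFNG* thus kept more of their share of the library than those of *HES1* and *HEY1* in each replicate.

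When a single slope was fitted over 0 to 3 h for each genotype, the slope of *DLL4* was steeper in A5-KO by -0.78 log2 per hour (SE 0.18, limma adjusted *p* = 0.0422). It was the only called member of 9, against 2.67% of all genes (2.61% lower and 0.0661% higher). The differences for *HEY1* (-0.47, SE 0.13, limma adjusted *p* = 0.0619) and *HES1* (-0.93, SE 0.40, adjusted *p* = 0.179) were not called. That for *HEY1* was called without replicate 1 of WT at 0 h (-0.54, adjusted *p* = 0.0231) or at 2 h (-0.51, adjusted *p* = 0.0103). Without the 2 h libraries, an alternative chosen after the data were seen, *DLL4* (-0.75, adjusted *p* = 0.0307) and *HEY1* (-0.47, adjusted *p* = 0.0353) were called and *HES1* was not (-0.95, adjusted *p* = 0.152). With only 0 and 3 h, *DLL4*, *HEY1*, *HES1* (-0.89, adjusted *p* = 0.000186) and *JAG1* (-0.15, adjusted *p* = 0.0197) were called. With one library left out the call of *DLL4* was lost in 14 of 16 fits, and was kept without replicate 1 of WT at 0 h and without replicate 1 of WT at 2 h.

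Other genes of the pathway moved over the same hours, 73 of 86 being tested. In the first hour, 17 fell and 0 rose in WT, against 15.3% lower and 0.206% higher of all genes tested. In A5-KO 21 fell and 2 rose, against 16.7% lower and 1.06% higher of all genes. Among 14 genes of the mixed list of HES and HEY family genes and targets, *MYC* (-3.27 in WT and -3.16 in A5-KO), *SOX9* (-2.07 and -2.05) and *HEY2* (-1.61 and -1.67) fell most in log2. Among 20 genes of the RBPJ complex, the largest changes in WT were those of 3 genes that fell in both genotypes: the coactivator *MAML2* (-1.51 and -1.49), the corepressor *TLE3* (-1.496 and -1.12) and the ubiquitin ligase subunit *FBXW7* (-1.13 and -1.16), by limma at adjusted *p* of at most 0.00502.

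From 1 h to 3 h, 0 of the 73 were called in WT, against 0.595% of all genes tested. In A5-KO 26 fell, against 15.5% called lower of all genes. For the difference 19 were called, all lower, against 15.4% lower and 1.22% higher of all genes. The 19 included 9 of 14 genes of the mixed list of HES and HEY family genes and targets. These were led by *MYC* (-2.94, limma adjusted *p* = 0.00165), *ID2* (-2.35, adjusted *p* = 0.000565) and *SOX9* (-2.16, adjusted *p* = 0.00169). They also included 9 of 20 genes of the RBPJ complex, led by *TLE3* (-1.74, adjusted *p* = 0.00599) and *TLE4* (-1.52, adjusted *p* = 0.00895). Of 14 endocytosis genes 2 were called, *DTX4* (-1.11, adjusted *p* = 0.0246) and *DTX1* (-0.85, adjusted *p* = 0.0401), which is also counted in the mixed list. No gene of the lists of receptor cleavage (9 tested), receptor glycosylation (7), other receptors and ligands (4) or endocrine genes under HES1 repression (7) was called. The median difference was -0.88 for the mixed list and -0.70 for the RBPJ complex, against 0.08 for receptor cleavage and -0.17 for all genes.

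At 3 h, 24 of the 73 were lower in A5-KO than in WT and 0 higher, against 17.7% lower and 1.15% higher of all genes tested. *RBPJ* itself was lower by -0.67 (limma adjusted *p* = 0.000573). *NEUROG3* was lower by -0.94 (adjusted *p* = 0.00283). Summed progenitor markers, 9 genes with *SOX9* among them, were at 404 to 419 CPM in WT against 107 to 123 CPM in A5-KO at 3 h, after 975 to 1242 and 930 to 1028 CPM at 0 h. Summed hepatic markers were at 1473 to 1604 CPM in WT against 2133 to 2283 CPM in A5-KO at 3 h, and mesenchyme markers at 201 to 204 against 326 to 339 CPM. Their part in the differences of the members was not tested.

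Across the 16 PP libraries, the genes whose log2(CPM + 1) was most like that of *HES1* were *MYC*, *MCL1*, *ZNF574*, *C15orf39* and *DYRK1A*, each with a Pearson *r* of 0.993, among 8919 genes whose mean reached 10 CPM. *JAG1* had an *r* of 0.947 and *HEY1* of 0.927, *NOTCH1* of 0.370, *LFNG* of -0.19, *NOTCH2* of -0.12 and *NOTCH3* of -0.74. All libraries share the course of Act D, and 92.7% of the genes had a lower *r* than *JAG1* and 88.8% than *HEY1*, so these values only describe a shared course.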

How the data were processed

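The deposited hILO values are TPM per gene, which the authors made from read pairs with fastp (trimming), HISAT2 2.1.0 (alignment, GRCh38) and StringTie (quantification). For PPs, the authors deposited CPM per gene after removing the ERCC spike-ins. The read counter and annotation release are not given in the sources used here. All CPM values were whole multiples of the value of 1 read. The library kit named does not keep strand, so reads from overlapping genes cannot be told apart. *JAG1* and *JAG2* share 306 of 9298 and 469 of 6396 exon bases with noncoding genes.

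Genotypes and times were compared with limma 3.58.1 under R 4.3.3 (moderated variances with a trend), applied to log2(TPM + 1) or log2(CPM + 1), and slopes on log2(CPM + 0.1), keeping genes whose mean in the fitted libraries reached 1. Adjusted *p*-values are Benjamini-Hochberg over all genes tested. The hILO and 0 h comparisons used 4 libraries each, and the others all 16 PP libraries. edgeR 4.0.16 and DESeq2 1.42.0 were run on the recovered reads as alternatives, beside another pseudocount, no filter, median-of-ratios scaling, a replicate block, other time points and each library left out. Coordinates came from GENCODE and promoters from RefSeq. The half-life conversion with spike-ins was not repeated.

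The members and gene lists were chosen with earlier results of these data known. All 10 members are named. Other genes are named where they pass the call of a comparison, at most 3 in each direction per list, with *ALKBH5* and *NEUROG3* named throughout. *RBPJ* at 3 h was singled out after its value was seen. The scripts recovered known changes when tested on simulated data. The simulated spread was the same in every group, whereas that of the PP groups here was unequal. This recovery therefore checks the code and not the calls in these data.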

Additional observations from a re-analysis of the deposited data

Results flagged for a closer look

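From 1 h to 3 h of Act D the change in PPs differed between the genotypes, by a test of the difference itself, for *HES1* (-2.27 on the log2 scale), *HEY1* (-1.37), *DLL4* (-1.20) and *NOTCH2* (0.64), A5-KO minus WT (limma on log2(CPM + 1)). The slope over 0 to 3 h differed for *DLL4*, by -0.78 log2 per hour. That slope call was lost with a replicate block and in most fits with one library left out. The 1 h to 3 h calls of *DLL4* and *NOTCH2* were also lost without certain single libraries. Without replicate 2 of A5-KO at 1 h, the difference of *NOTCH2* was 0.34.

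*HES1* lay below WT in both A5-KO hILO libraries (-0.77 on the log2 scale) and above WT in both A5-KO PP libraries at 0 h (0.31). *NOTCH3* also lay below WT in both A5-KO hILO libraries (-0.63, without a test) and above in both PP libraries at 0 h (0.083, not called). The difference between the stages was not tested for either gene, because the tables of the stages were normalised separately.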

How the results depend on the processing

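Of 582 single-gene values under alternatives other than a left-out library, 527 kept their direction and side of the threshold, and for the rest the cause was not tested. Log2 values turned sign for *NOTCH1* in hILOs (-0.00026 with a pseudocount of 0.1), *NEUROG3* in PPs at 0 h (-0.012 with median-of-ratios scaling, -0.021 with edgeR, -0.020 with DESeq2), *NOTCH1* in the first hour in A5-KO (0.012, 0.023 and 0.015), *HEY1* from 1 h to 3 h in WT (-0.027, -0.030 and -0.029), the 1 h to 3 h difference of *NOTCH1* (0.16, 0.12 and 0.13) and *NOTCH1* at 3 h (0.019 with that scaling). Slope differences turned sign with that scaling for *JAG2* (0.023) and *LFNG* (0.067), with 0 and 1 h only for *HEY1* (0.20), *JAG1* (0.033), *JAG2* (0.35), *LFNG* (0.37) and *NOTCH2* (-0.45), with 0 and 3 h only for *LFNG* (0.030), and without 2 h for *LFNG* (0.0061). None of these was called. The number of called members became 0 in hILOs without the filter on low values, 5 from 1 h to 3 h in A5-KO with median-of-ratios scaling, and 2 for the 1 h to 3 h difference without the filter. For the slope it became 0 with a pseudocount of 1, 0 without the filter, 0 with 0 and 1 h only, 4 with 0 and 3 h only and 2 without 2 h. Libraries with the same replicate number showed little shared deviation (correlations of deviations between -0.26 and 0.18), which does not settle whether they were paired. With a replicate block the slope count was 0, as it was 0 with a block within genotype. The 1 h to 3 h difference of *DLL4* (adjusted *p* = 0.0504) and the hILO difference of *NEUROG3* (0.0957) were not called with that block either. With one library left out, the count of called members was 0 to 0 in hILOs, 1 to 4 in the first hour in A5-KO, 0 to 1 for the first-hour difference, 2 to 4 for the 1 h to 3 h difference and 0 to 2 for the slope. Values that turned sign with one library left out ranged, in hILOs, from -0.47 to 0.59 (*NOTCH1*) and -0.13 to 0.17 (*NOTCH2*), and in PPs at 0 h from -0.14 to 0.021 (*JAG1*), -0.075 to 0.24 (*LFNG*), -0.13 to 0.044 (*NOTCH2*) and -0.14 to 0.18 (*NEUROG3*). In the first hour they ranged in WT from -0.024 to 0.10 (*JAG2*), -0.0040 to 0.021 (*LFNG*) and -0.066 to 0.13 (*NOTCH1*), in A5-KO from -0.37 to 0.078 (*NOTCH1*) and -0.053 to 0.59 (*NOTCH3*), and for the difference from -0.52 to 0.047 (*DLL4*), -0.34 to 0.27 (*HES1*), -0.094 to 0.16 (*JAG1*), -0.40 to 0.045 (*NOTCH1*) and -0.31 to 0.33 (*NOTCH3*). From 1 h to 3 h they ranged in WT from -0.051 to 0.16 (*DLL4*), -0.081 to 0.12 (*HEY1*), -0.49 to 0.13 (*JAG2*), -0.055 to 0.22 (*LFNG*), -0.43 to 0.14 (*NOTCH1*) and -0.30 to 0.23 (*NOTCH3*), in A5-KO from -0.38 to 0.072 (*NOTCH1*) and for the difference from -0.29 to 0.28 (*NOTCH1*). They ranged at 3 h from -0.40 to 0.17 (*NOTCH1*) and for the slope from -0.14 to 0.019 (*JAG2*) and -0.068 to 0.035 (*LFNG*). Depth is unknown for hILOs, and 2 libraries per group limit all of these values.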
